A study of Mus musculus with 9 samples.

Results

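The nuclear receptors PPARα, PPARδ and PPARγ, the retinoid X receptors with which they pair, the coactivators PGC-1α and PGC-1β and the corepressor NCoR1 were followed in mouse renal cortex through the 9 genes Ppara, Ppard, Pparg, Rxra, Rxrb, Rxrg, Ppargc1a, Ppargc1b and Ncor1. They were picked by gene symbol, with earlier results of these data known, from the 21950 genes of the mRNA tables. No filter on their values was applied, and they hold 44 of the 50660 mRNA transcripts. Mice with 2 db copies of the leptin receptor gene Lepr have no full-length receptor, and grow obese and diabetic. The dbdb and dbR groups were male db/db mice on the C57BL/KsJ background, and the Control group was male db/m mice, which carry 1 mutated and 1 normal copy of Lepr and stay lean. From the age of 7 weeks the dbR mice were gavaged with rosiglitazone over 8 weeks (20 mg/kg/day), while the dbdb mice had vehicle and the Control mice no rosiglitazone. All mice were 15 weeks old when the cortex was taken, and each of the 3 groups has 3 libraries from 3 mice.

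A PPAR binds DNA as a heterodimer with an RXR, mostly at a direct repeat of the half-site AGGTCA with 1 base between the copies. Without a ligand the pair can hold corepressors such as NCoR1, and with a fatty acid or a drug in the pocket it takes up coactivators instead. PPARα, the target of fibrates, drives fatty acid oxidation and ketone body synthesis and is rich in the proximal tubule. PPARγ is the target of rosiglitazone and the master regulator of fat cells, and PPARδ is found in most tissues. PGC-1α and PGC-1β bind PPARs, estrogen-related receptors and nuclear respiratory factors and raise the transcription of mitochondrial genes.

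The values are FPKM (fragments per kilobase of transcript, scaled for the mapped fragments), summed over the transcripts of a gene, and changes are on the log2(FPKM + 0.1) scale, which understates those of weakly expressed genes. A gene was called changed at an adjusted p under 0.05 in limma, fitted over the 14537 genes whose FPKM averaged 0.1 or more. FPKM does not hold the number of fragments behind a value. The relative depth of the libraries was not measured but estimated from 1225 genes with low values. The estimate lay between 0.917 and 1.14 with Control replicate 1 as 1. Mitochondrial transcripts held 26.9% to 32.8% of the mRNA FPKM. In dbdb vs. control 26.4% of all genes tested were called, in dbR vs. dbdb 0.743% and in dbR vs. control 24.1%. Of these calls 49.5%, 75.9% and 51.1% were higher in the first-named group. When mitochondrial transcripts were removed and each library was brought to an equal total, these shares were 78.3%, 48.6% and 70.5%, and the median log2 change of all genes in dbdb vs. control was then 0.15 in place of -0.00. A bulk library cannot tell fewer cells of a type from less RNA per cell. The proximal tubule markers Lrp2, Slc34a1 and Slc5a2 were abundant in every group, in keeping with the labelled tissue, and 2 of the 8 proximal tubule markers were higher and 1 lower in dbdb.

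Upstream sequences are shown for the start sites that the results turn on, namely those of the members that rose, a second start of Rxrg that gave little transcript, and the start of PPARγ2. Each is the 250 bases before a RefSeq start site (GRCm38.p6), written 5′ to 3′ on the strand of the gene. Capitals mark AGGTCA on either strand (the half-site, present in 14% of 32851 such windows) and GGGCGG on either strand (the GC box, present in 32.7%). TATAAA (the TATA box, 12.4%), CACGTG (the E-box, 6.02%) and the PPAR and RXR element itself, AGGTCA repeated after 1 base (0.0335%, also counted as half-sites), were searched too.
Ppara, start of Ppara-202, chr15:85735526-85735775, plus strand: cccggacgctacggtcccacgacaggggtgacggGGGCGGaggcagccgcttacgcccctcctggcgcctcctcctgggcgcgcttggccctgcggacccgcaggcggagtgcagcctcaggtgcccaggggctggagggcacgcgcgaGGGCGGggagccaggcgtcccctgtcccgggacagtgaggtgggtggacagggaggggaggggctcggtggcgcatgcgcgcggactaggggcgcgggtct
Rxra, start of Rxra-201, chr2:27676951-27677200, plus strand: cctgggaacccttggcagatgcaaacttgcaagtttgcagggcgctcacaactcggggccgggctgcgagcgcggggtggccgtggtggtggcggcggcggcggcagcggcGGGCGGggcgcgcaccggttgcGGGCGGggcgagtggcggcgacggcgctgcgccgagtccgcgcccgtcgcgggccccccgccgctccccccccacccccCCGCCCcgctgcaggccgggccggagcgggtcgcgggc
Rxrg, start of Rxrg-202, chr1:167618015-167618264, plus strand: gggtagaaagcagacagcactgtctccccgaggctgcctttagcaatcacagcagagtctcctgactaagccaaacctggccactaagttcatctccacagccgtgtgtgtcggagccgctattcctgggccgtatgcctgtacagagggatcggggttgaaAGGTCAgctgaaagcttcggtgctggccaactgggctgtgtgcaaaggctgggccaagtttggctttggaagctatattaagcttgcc
Rxrg, start near Rxrg-201, chr1:167598112-167598361, plus strand: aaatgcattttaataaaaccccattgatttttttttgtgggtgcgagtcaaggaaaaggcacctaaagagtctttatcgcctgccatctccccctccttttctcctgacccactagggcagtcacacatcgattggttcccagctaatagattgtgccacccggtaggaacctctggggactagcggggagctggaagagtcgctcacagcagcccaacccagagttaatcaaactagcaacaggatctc
Pparg, start of Pparg-201 (PPARγ2), chr6:115421816-115422065, plus strand: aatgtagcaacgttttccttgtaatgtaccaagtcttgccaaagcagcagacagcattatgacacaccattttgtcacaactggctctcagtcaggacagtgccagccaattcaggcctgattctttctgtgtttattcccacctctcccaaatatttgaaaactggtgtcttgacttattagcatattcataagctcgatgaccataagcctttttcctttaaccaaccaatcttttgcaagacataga
The Ppara and Rxra windows were rich in CpG, with 27 and 40 CpG dinucleotides against a median of 6 over all windows, and held 2 and 3 GC boxes. The window of Rxrg-202 had 7 CpG and no GC box, and its AGGTCA began 88 bases before the RefSeq start, itself 44 bases before the start of Rxrg-202. The PPARγ2 window, with 2 CpG, held none of the motifs. The full direct repeat was in none of the 14 windows of 8 of the genes. A match is only a run of letters and does not show that a receptor binds there.

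**Figure D1:**
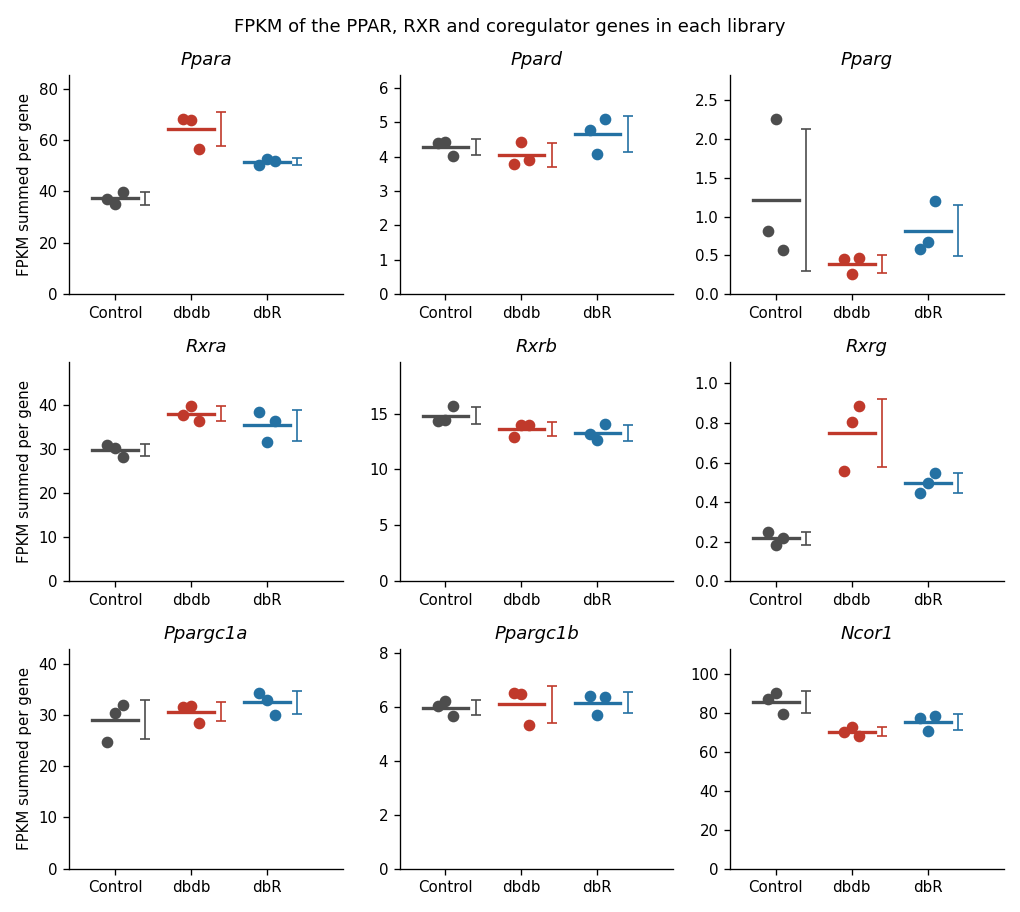
FPKM summed per gene (y axis, from 0, with its own scale in each panel) in the 3 libraries of each group for the 9 genes. Points are libraries, horizontal bars are means and the lines beside them show ± 1 SD; the dbdb points of Ppara, Rxra and Rxrg lie above all Control points and those of Ncor1, Pparg and Rxrb below them.

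In dbdb vs. control 4 of the 9 genes were called, with Ppara, Rxra and Rxrg higher and Ncor1 lower. The share of all genes called was 26.4%, 13.1% higher and 13.4% lower. In 6 of the 9 genes the dbdb and Control libraries did not overlap, against 42.4% of all genes, and 5 had an unadjusted p under 0.05, against 38.8%. In dbR vs. dbdb limma called 0 of the 9 genes, where 0.743% of all genes were called, and 2 of them (Ppara and Rxrg, both lower in dbR) had an unadjusted p under 0.05, as did 17.5% of all genes. The dbR and dbdb libraries did not overlap in 3 of the 9, Ppara, Pparg and Rxrg, against 22.7% of all genes. Against control, dbR had Ppara, Rxra and Rxrg called higher, 3 of 9, where 24.1% of all genes were called and 12.3% called higher. Here 5 of the 9 had no overlap (41.9% of all genes) and 5 an unadjusted p under 0.05 (36.8%). Both comparisons with control share the Control libraries, and the 2 that hold dbdb share the dbdb libraries. The median log2 change of the 9 genes was 0.03, 0.02 and 0.12 in the 3 comparisons, and that of all genes -0.00 in each.

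**Figure D2:**
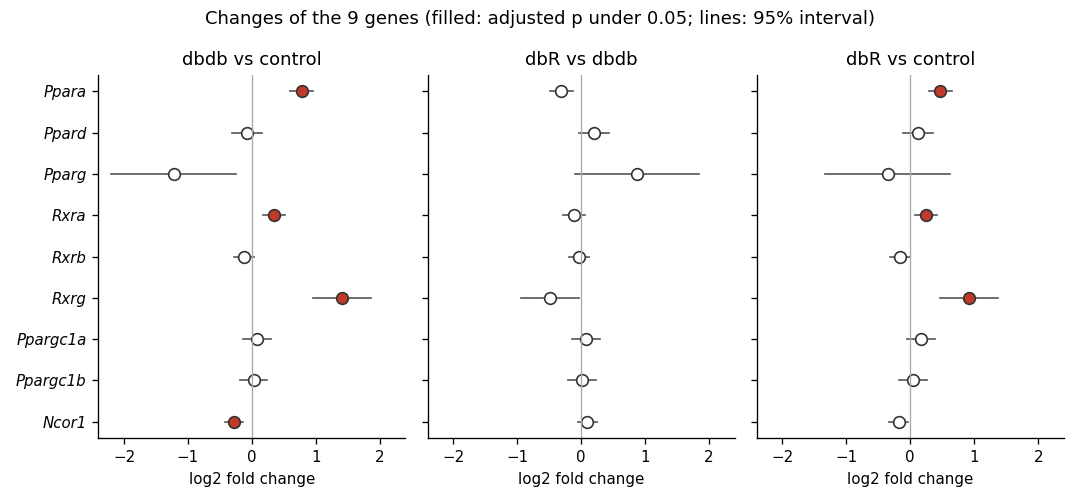
Log2 fold change of each of the 9 genes (x axis) with its 95% interval from limma (line) in the 3 comparisons. Filled points have an adjusted p under 0.05: Ppara, Rxra, Rxrg and Ncor1 in dbdb vs. control, none in dbR vs. dbdb, and Ppara, Rxra and Rxrg in dbR vs. control.

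By mean FPKM over the 9 libraries the genes stood in the order Ncor1 (76.9), Ppara (51.1), Rxra (34.5), Ppargc1a (30.7), Rxrb (13.9), Ppargc1b (6.09), Ppard (4.33), Pparg (0.808) and Rxrg (0.488). The ranges of neighbours overlapped among the first 4 genes and between the last 2, and no others did. Ppara and Rxra were thus the leading members of their families. Ppara held 83.9% to 89.7% of the FPKM of the 3 PPAR genes in Control libraries, 92.8% to 94.2% in dbdb and 89.2% to 91.7% in dbR. Rxra held 64.0% to 68.1% of the RXR FPKM in Control, 71.0% to 73.8% in dbdb and 70.7% to 73.9% in dbR.

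Ppara, on chromosome 15 (85734983 to 85802819, plus strand), encodes PPARα. It was read at 37.0, 35.0 and 39.9 FPKM in the Control libraries, 68.3, 67.7 and 56.6 in dbdb and 50.3, 52.6 and 52.0 in dbR. Every dbdb library lay above every dbR library, and every dbR library above every Control library. The means were 37.3 ± 2.48, 64.2 ± 6.59 and 51.6 ± 1.22 (SD, n = 3 each), so dbdb stood at 1.72 times the Control mean. Ppara rose by 0.78 on the log2 scale in dbdb vs. control (SE 0.08, limma adjusted p = 0.000151) and by 0.47 in dbR vs. control (adjusted p = 0.00254). Its change in dbR vs. dbdb was -0.31, with a 95% interval of -0.49 to -0.13, unadjusted p = 0.00323 and adjusted p = 0.0955 over all genes. That comparison was called without dbdb replicate 3 (-0.40, adjusted p = 0.0381) and with mitochondrial transcripts left out (-0.37, adjusted p = 0.0399), and the adjusted p reached 0.248 over the alternatives that kept the sum of transcripts and 0.347 with Ppara-202 alone.

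Both main transcripts of Ppara were called higher in dbdb vs. control. Ppara-202, which starts where the sequence shown above ends, held 59.4% of the FPKM, and Ppara-201, which starts 0.355 kb further downstream, held 39.6%; both code for the same 468 residues. Ppara-202 was at 20.8, 20.4 and 23.0 FPKM in Control, 41.2, 39.4 and 33.3 in dbdb and 31.5, 32.0 and 31.3 in dbR. Ppara-201 was at 15.8, 14.2 and 15.6 in Control, 26.9, 27.8 and 22.6 in dbdb and 18.3, 20.1 and 20.7 in dbR. The 3 groups did not overlap in either transcript. In the fit over 31858 transcripts, of which 9.23% were called in dbdb vs. control, the log2 changes were 0.82 (adjusted p = 0.00101) for Ppara-202 and 0.75 (adjusted p = 0.00198) for Ppara-201. Where dbR was compared with control, with 8.3% of transcripts called, they were 0.56 (adjusted p = 0.00576) and 0.37 (adjusted p = 0.0428), and between dbR and dbdb, where 0.0126% were called, neither was. The call of Ppara-201 in dbR vs. control was lost in 9 of 16 alternatives, the replicate block among them, with an adjusted p of up to 0.129. The summed FPKM of the 8 proximal tubule markers was 4094 to 4887 in Control, 3818 to 4738 in dbdb and 4660 to 4913 in dbR, with Slc5a12 and Slc5a2 called higher and Slc22a6 lower in dbdb vs. control. Markers of the distal nephron, given with Rxrg, rose in dbdb beside Ppara, and 2 of 5 podocyte markers, Nphs1 and Podxl, were called higher there. The part of any of these cells in the values of Ppara was not tested.

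Pparg (chromosome 6, 115360951 to 115490399, plus strand) encodes PPARγ, the receptor of the drug given to the dbR mice, and was scarce in every group. Its FPKM was 0.812, 2.26 and 0.563 in Control, 0.447, 0.259 and 0.471 in dbdb and 0.583, 0.673 and 1.20 in dbR. The dbdb libraries lay below all others, and the Control libraries spread widely, with replicate 2 far above its group. Pparg changed by -1.22 on the log2 scale in dbdb vs. control (95% interval -2.20 to -0.25, adjusted p = 0.0635) and 0.87 in dbR vs. dbdb (-0.10 to 1.84, adjusted p = 0.336), so neither was called. Its size hung on single Control libraries. Without Control replicate 3 the change in dbdb vs. control was called (-1.61, adjusted p = 0.0293), and without Control replicate 2 it was -0.69 (adjusted p = 0.169). Over the alternatives that kept the sum of transcripts the change ran from -1.61 to -0.60 and its adjusted p from 0.0293 to 0.180.

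The transcripts of Pparg show where that spread sits. Pparg-206, a 497-base model with 96 coding residues, gave 1.53 of the 2.26 FPKM in Control replicate 2 and 0.734 of the 1.20 in dbR replicate 3, and taken alone it changed by -2.32 in dbdb vs. control (adjusted p = 0.191). Pparg-202 and Pparg-204, which code for the 475 residues of PPARγ1, summed to 0.491, 0.373 and 0.335 FPKM in Control, 0.281, 0.10 and 0.198 in dbdb and 0.422, 0.576 and 0.466 in dbR. On this sum, chosen after the values were seen and not tested, dbdb lay below both other groups without overlap. Pparg-201, which codes for the 505 residues of PPARγ2, the form of fat cells, did not exceed 0.180 FPKM in any library. Its start lies 61.1 kb downstream of that of Pparg-202.

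Markers of several other cell types moved beside Pparg. Of 5 macrophage markers 4 were lower in dbdb than in control, with a summed FPKM of 39.4 to 48.8 in Control, 18.9 to 28.2 in dbdb and 25.5 to 32.8 in dbR, and of 5 endothelial markers 4 were lower, with sums of 104 to 117, 79.1 to 86.2 and 110.0 to 128. Of 4 stromal cell markers none was called in dbdb vs. control and 1, Pdgfrb, was higher in dbR vs. dbdb, with sums of 17.9 to 26.5 in Control, 16.9 to 23.8 in dbdb and 27.2 to 36.4 in dbR. Of 7 adipocyte markers 3 were tested and 1, Cfd, was lower in dbdb. Their sum was 0.351 to 3.01 FPKM in Control, 0.0769 to 0.126 in dbdb and 0.0767 to 0.701 in dbR. Adipoq and Plin1 were listed at 0 in all dbdb libraries and above 0 in 2 dbR libraries each. Retn was listed at 0 in every dbdb and dbR library, and Cfd at 0 in all dbR libraries, so neither had the order of groups of Pparg. Ucp1 was read only in dbdb (0.0769 and 0.0501 FPKM in 2 of its libraries). The part of these cells in the values of Pparg was not tested.

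Ppard (chromosome 17, 28232700 to 28301474, plus strand), which encodes PPARδ, held between 3.80 and 5.10 FPKM in all 9 libraries, and its groups overlapped in each comparison. Changes of Ppard were small, with log2 values of -0.08 in dbdb vs. control (95% interval -0.31 to 0.15), 0.20 in dbR vs. dbdb (-0.04 to 0.43) and 0.12 in dbR vs. control (-0.12 to 0.35). With mitochondrial transcripts left out the first of these was 0.07, of opposite sign. Ppard-201, with 440 residues, held 91.2% of its FPKM.

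**Figure D3:**
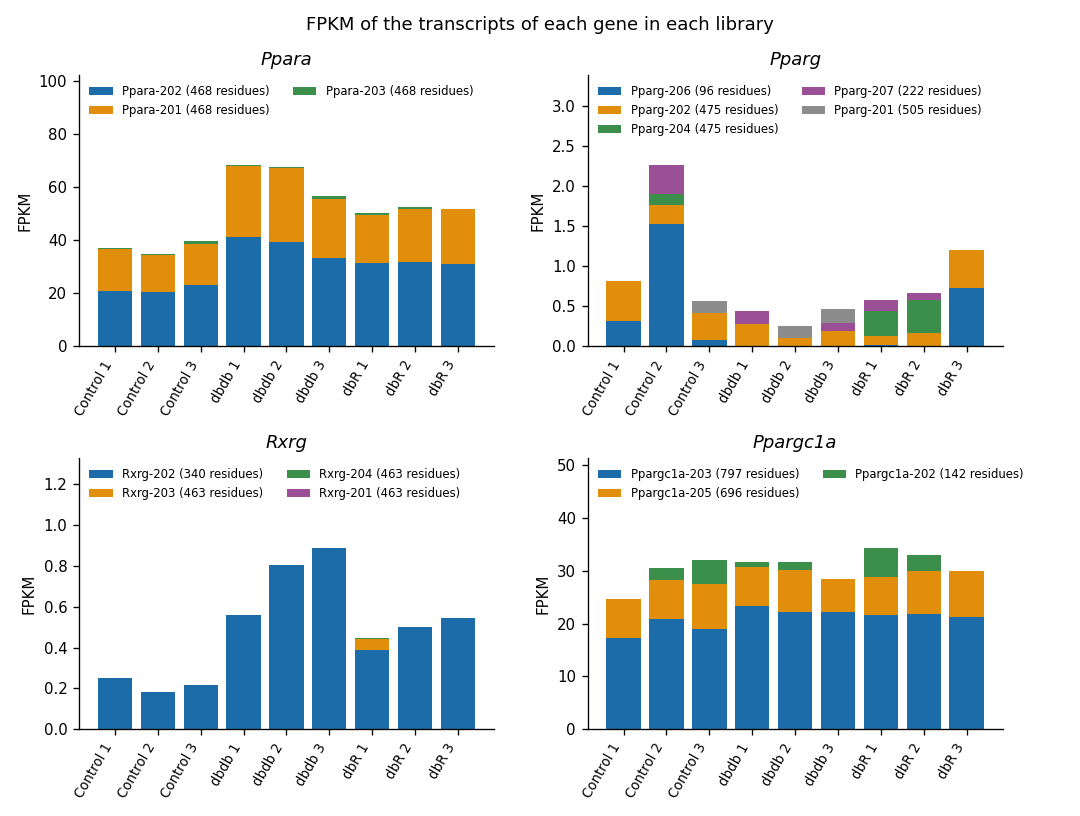
FPKM (y axis, from 0) of the transcripts of Ppara, Pparg, Rxrg and Ppargc1a, stacked for each of the 9 libraries, with the number of residues each transcript codes for. Ppara-202 and Ppara-201 are both taller in dbdb than in Control, Rxrg is mostly Rxrg-202, and the tall Control 2 bar of Pparg is mostly Pparg-206.

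Among the partners, Rxra (chromosome 2, 27676440 to 27762957, plus strand), which encodes RXRα, was at 31.0, 30.3 and 28.3 FPKM in Control, 37.8, 39.9 and 36.5 in dbdb and 38.4, 31.6 and 36.3 in dbR. All dbdb and dbR libraries lay above the Control libraries, and dbR overlapped with dbdb. Rxra rose by 0.35 on the log2 scale in dbdb vs. control (SE 0.08, adjusted p = 0.00923), to 1.27 times the Control mean, and by 0.24 in dbR vs. control (adjusted p = 0.0467). The second call was lost in 10 of 17 alternatives, with an adjusted p of up to 0.148, among them each setting that left out a Control library. In dbR vs. dbdb the log2 change was -0.11 (95% interval -0.28 to 0.07, adjusted p = 0.522). Rxra-201, which codes for 467 residues, held 98.9% of the FPKM and rose by 0.34 on the log2 scale in dbdb (adjusted p = 0.0191, a call lost in 5 of 16 alternatives with values of up to 0.0810), while Rxra-202, whose window 5′ of the start holds 2 AGGTCA half-sites, did not exceed 0.0024 FPKM.

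Rxrg (chromosome 1, 167598384 to 167639623, plus strand) encodes RXRγ, known best from muscle and brain, and was the member with the lowest mean over the 9 libraries and the largest called change, although in dbdb it lay above Pparg. Its FPKM was 0.250, 0.183 and 0.219 in Control, 0.558, 0.803 and 0.886 in dbdb and 0.447, 0.499 and 0.546 in dbR. The order was dbdb above dbR above Control, without overlap. The mean of dbdb was 3.45 times and that of dbR 2.29 times the Control mean. On the log2 scale the change of Rxrg was 1.41 in dbdb vs. control (SE 0.20, adjusted p = 0.000933), 0.92 in dbR vs. control (adjusted p = 0.00938) and -0.49 between dbR and dbdb (95% interval -0.94 to -0.04, unadjusted p = 0.0360, adjusted p = 0.248).

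Of 4 Rxrg transcripts, Rxrg-202 held 98.6% of the FPKM. It starts 19.9 kb inside the gene and codes for 340 residues, while Rxrg-201, Rxrg-203 and Rxrg-204 code for 463 and were listed below 0.1 FPKM in each library. The exception to the near-total share of Rxrg-202 was dbR replicate 1, where it held 86.4% and Rxrg-203 was listed at 0.0541 FPKM. Rxrg-202 was called in dbdb vs. control in the fit over transcripts (1.41, adjusted p = 0.0184, lost in 4 of 15 alternatives with values of up to 0.0673) but not in dbR vs. control (0.86, adjusted p = 0.110). Markers of the distal nephron moved with Rxrg in the same direction. All 3 distal convoluted tubule markers (summed FPKM 156 to 176 in Control, 287 to 314 in dbdb, 320.2 to 359 in dbR), all 4 intercalated cell markers (32.4 to 33.9, 52.7 to 58.4, 57.5 to 60.7) and 3 of 5 principal cell markers (115 to 138, 177 to 270.4, 195 to 215) were higher in dbdb than in control. Of these markers Trpm6 and Foxi1 had the order of groups of Rxrg, dbdb above dbR above Control without overlap. The summed distal convoluted tubule level in dbR lay above that in dbdb. In dbR vs. dbdb 1 intercalated and 1 principal cell marker were called, both higher, against the direction of Rxrg. They were Atp6v1g3 (0.52, limma adjusted p = 0.0251) and Fxyd4 (0.64, adjusted p = 0.0433), and Fxyd4 changed by -0.18 in dbdb vs. control. The part of these cells in the values of Rxrg was not tested.

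Among genes that averaged 1 FPKM or more, those whose centred log2 profile over the 9 libraries lay closest to that of Rxrg were Fgf18, a fibroblast growth factor (root mean square difference 0.14), Thrsp, a lipogenic nuclear protein (0.15), and Per2, a repressor of the circadian clock (0.16). Mean FPKM in Control, dbdb and dbR was 0.898, 2.45 and 1.58 for Fgf18, 1.60, 4.05 and 2.89 for Thrsp and 7.17, 16.6 and 11.8 for Per2. The profiles are of log2(FPKM + 0.1), which understates the change of a gene as weak as Rxrg, so the nearest genes may depend on this scale.

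Rxrb (chromosome 17, 34031812 to 34038399, plus strand), which encodes the widely expressed RXRβ, was at 14.3, 14.4 and 15.7 FPKM in Control, 12.9, 14.0 and 14.0 in dbdb and 13.2, 12.6 and 14.1 in dbR. Both db/db groups lay below Control without overlap, by little. Neither difference was called (log2 changes of -0.12 with adjusted p = 0.231 in dbdb vs. control and -0.16 with adjusted p = 0.131 in dbR vs. control), and the first was 0.04 with mitochondrial transcripts left out. Of its 5 transcripts Rxrb-201 (524 residues) held 49.3%, Rxrb-202 (410 residues) 29.9%, Rxrb-204, a retained intron, 13.4% and Rxrb-207 (520 residues) 7.38%. Rxrb-207 was at 1.31 to 2.42 FPKM in Control and at most 0.436 in dbdb, a log2 change of -3.25 (limma adjusted p = 0.0977). In the same comparison Rxrb-201 changed by -0.14, and Rxrb-202 and Rxrb-204 went the other way, by 0.28 and 0.21. None of the 4 was called.

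Ppargc1a (chromosome 5, 51454250 to 51567726, minus strand) encodes PGC-1α, which is abundant in the mitochondria-rich tubule. It was at 24.8, 30.5 and 32.0 FPKM in Control, 31.7, 31.7 and 28.5 in dbdb and 34.3, 33.0 and 30.0 in dbR, and the groups overlapped in every comparison. The log2 change was 0.08 in dbdb vs. control (95% interval -0.13 to 0.30), 0.08 in dbR vs. dbdb (-0.14 to 0.30) and 0.16 in dbR vs. control (-0.05 to 0.38). The full-length transcript Ppargc1a-203 (797 residues) held 68.6% of the sum, with 17.3, 20.9 and 19.0 FPKM in Control, 23.4, 22.3 and 22.2 in dbdb and 21.6, 21.9 and 21.2 in dbR. Its Control libraries lay below all others, and the log2 change in dbdb vs. control was 0.25 (adjusted p = 0.0673, between 0.0209 and 0.175 over the alternatives). Ppargc1a-202, a 488-base model with 142 coding residues that starts 13.8 kb upstream, ran from near 0 to 5.37 FPKM within the groups and took up 6.38% of the sum.

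Gm43605, an annotated lncRNA of a single exon, lies on the same strand within an intron of Ppargc1a (chromosome 5, 51510868 to 51514293), 34218 bases from the exon before it and 12639 bases from the exon after it. It was at 1.30, 1.44 and 0.974 FPKM in Control, 2.15, 1.97 and 1.90 in dbdb and 1.75, 1.42 and 1.48 in dbR. The dbdb libraries were above all others, and dbR overlapped with Control. The log2 change was 0.67 in dbdb vs. control (SE 0.18, adjusted p = 0.0542, from 0.0396 to 0.143 over the alternatives) and -0.36 when dbR was set against dbdb (adjusted p = 0.546), so it was not called. Reads of the unspliced Ppargc1a RNA and of Gm43605 cannot be told apart in this intron. Of the lncRNAs assembled by the authors, LNC_000171 lies 38.4 kb and LNC_000170 95.5 kb from Ppara and LNC_000368 52.4 kb from Pparg, and none of these was called in any comparison.

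**Figure D4:**
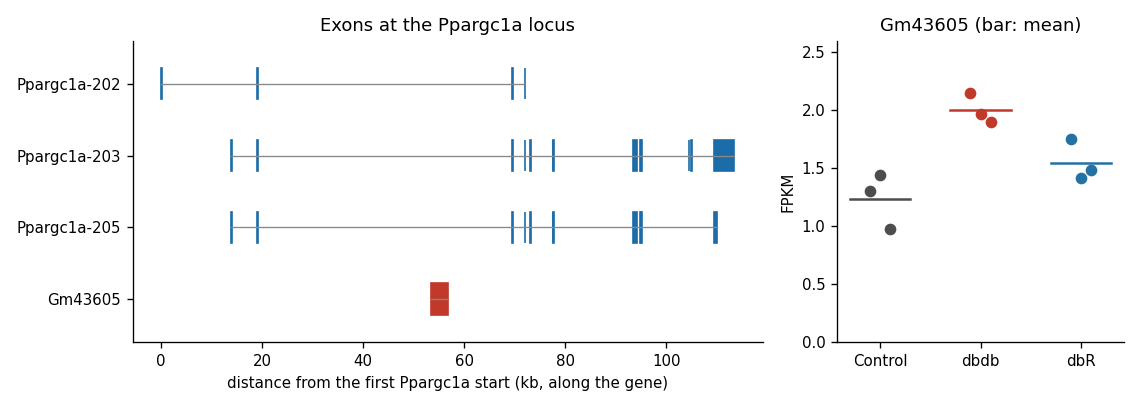
Left, exons (boxes) of the 3 Ppargc1a transcripts in the files and of Gm43605 by distance from the first Ppargc1a start in kb; right, FPKM of Gm43605 in each library (points) with group means (bars). Gm43605 sits inside an intron, and its dbdb libraries (1.90 to 2.15 FPKM) lie above those of Control and dbR.

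Ppargc1b (chromosome 18, 61298136 to 61400431, minus strand), which encodes PGC-1β, had the smallest log2 change of the 9 genes in each comparison. It was between 5.32 and 6.53 FPKM in all libraries, nearly all of it from Ppargc1b-202 (1014 residues). Its log2 change was 0.03 in dbdb vs. control (95% interval -0.19 to 0.24), 0.02 in dbR vs. dbdb (-0.20 to 0.23) and 0.04 in dbR vs. control (-0.17 to 0.26).

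Ncor1 (chromosome 11, 62316426 to 62458541, minus strand) encodes the corepressor that binds nuclear receptors without ligand and holds histone deacetylase 3. It was at 86.8, 90.1 and 79.2 FPKM in Control, 70.2, 72.5 and 68.0 in dbdb and 77.1, 70.6 and 78.1 in dbR. The dbdb and dbR libraries all lay below the Control libraries, and dbdb and dbR overlapped. The log2 change was -0.28 in dbdb vs. control (SE 0.07, adjusted p = 0.0119), and the dbdb mean fell by 17.7% from that of Control. For dbR the log2 change was -0.18 against control (adjusted p = 0.0715) and 0.10 against dbdb (95% interval -0.05 to 0.24, adjusted p = 0.477). The call in dbdb vs. control was lost with quantile normalization (-0.16, adjusted p = 0.152) and with mitochondrial transcripts left out (-0.12, adjusted p = 0.301).

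The sum for Ncor1 rests on 13 tested transcripts, many of them short partial models, so it is not the level of the full-length RNA. The longest one, of 9037 bases and with 2454 coding residues, held 21.2% of it, with 17.7, 18.0 and 17.1 FPKM in Control, 15.8, 16.3 and 14.0 in dbdb and 15.5, 15.7 and 16.9 in dbR. Here too Control lay above both other groups, by a log2 change of -0.20 in dbdb vs. control (adjusted p = 0.126). Of the 13 transcripts 10 were lower in dbdb and none was called, with a smallest adjusted p of 0.0708.

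Other coregulators of nuclear receptors were read from a list of 20 genes, all tested. In dbdb vs. control 4 were higher and 1 was lower, where 13.1% of all genes were called higher and 13.4% lower. Among the higher ones, Nrip1, a corepressor of metabolic receptors, rose by 0.43, Lpin1, a phosphatidate phosphatase and PGC-1α partner, by 0.73, and Prdm16, known from brown fat, by 0.81. The call of Nrip1 was lost without dbdb replicate 2 (0.36, adjusted p = 0.0655). Med14, a subunit of the Mediator complex, fell from 35.4, 28.5 and 33.5 FPKM in Control to 16.5, 14.6 and 14.0 in dbdb, and was at 15.8, 15.9 and 16.4 in dbR (log2 change -1.10 in dbdb vs. control, adjusted p = 4.00e-05). In dbR vs. dbdb, where 0.743% of all genes were called, 1 of the 20 was, Lpin1. It was lower, with 18.6, 20.1 and 15.9 FPKM in dbdb and 12.8, 10.7 and 11.8 in dbR (-0.62, adjusted p = 0.0445). This call was lost in 9 of 16 alternatives (adjusted p up to 0.189). Compared with control, dbR had 3 higher and 2, Med14 and Tbl1x, lower, where 24.1% of all genes were called. The median log2 change of the list was 0.07, -0.05 and 0.04 in the 3 comparisons.

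Among 13 other receptors that pair with RXR, 3 were higher and 2 lower in dbdb vs. control, where 26.4% of all genes were called. Nr4a1 (NUR77) changed by 1.44, Nr1i2 (the pregnane X receptor) by 0.65 and Rarb (retinoic acid receptor β) by 0.39, while Thrb (thyroid hormone receptor β) fell by 0.39 and Nr1h3 (LXRα) by 0.33 on the log2 scale. The 3 dbdb values of Nr4a1, an early response gene, were 5.72, 2.41 and 2.12 FPKM and those of Control 0.789, 1.47 and 1.07, with dbdb replicate 1 the highest. The call of Nr4a1 was lost in 2 of 16 alternatives (adjusted p up to 0.0635), that of Rarb in 6 of 16 (up to 0.0915) and that of Thrb with mitochondrial transcripts left out (-0.23, adjusted p = 0.0723). The number of the receptors called ran from 2 to 5 over the alternatives. The log2 changes of Rarb, Nr1i2, Nr1h3 and Rarg were 0.74, 0.72, -0.43 and 0.33 in dbR vs. control, with that of Rarg losing its call in 8 of 16 alternatives (adjusted p up to 0.143). No receptor of the list was called in dbR vs. dbdb, where 0.743% of all genes were. The median log2 change of the list was -0.01 there and 0.16 in dbdb vs. control.

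Of the 15 transcription factors with which PGC-1 proteins work, 4 were higher and 4 lower in dbdb vs. control. Of all genes 13.1% were called higher and 13.4% lower there. Higher were Esrrb, an estrogen-related receptor (1.06), Perm1, a muscle regulator of mitochondrial genes (0.90), Foxo1, a target of insulin signalling (0.76), and Esrra, the estrogen-related receptor α (0.31). Lower were Mef2c, a MADS-box factor (-0.48), both subunit genes of NRF-2, Gabpb1 (-0.33) and Gabpa (-0.31), and Tfb2m, a mitochondrial transcription factor (-0.20). The call of Mef2c was lost in 3 of 16 alternatives, without Control replicate 2 (adjusted p = 0.0596), without dbdb replicate 1 (adjusted p = 0.0512) and with mitochondrial transcripts left out (adjusted p = 0.0971), and the number of the factors called ran from 5 to 8. Foxo1 was at 10.1, 10.0 and 9.56 FPKM in Control, 16.6, 18.3 and 15.6 in dbdb and 13.7, 12.0 and 13.3 in dbR, the same order of groups as Ppara. Mef2c was the called factor in dbR vs. dbdb (0.75, adjusted p = 0.0321), with 3.98, 5.52 and 4.59 FPKM in dbdb and 7.67, 7.88 and 8.19 in dbR. This call was lost in 9 of 16 alternatives (adjusted p up to 0.149), and 0.743% of all genes were called there. Of the 5 endothelial markers, Emcn and Kdr had the same pattern as Mef2c, called lower in dbdb vs. control (-0.61 and -0.34) and higher in dbR vs. dbdb (0.66 and 0.52). Pecam1, Cdh5 and Flt1 were not called in dbR vs. dbdb (limma adjusted p = 0.0517, 0.121 and 0.200), and Flt1 changed by 0.08 in dbdb vs. control. The part of these cells in the values of Mef2c was not tested. Of the 15 factors, 3 were higher and 2 lower in dbR vs. control, where 24.1% of all genes were called. Of 6 upstream regulators of PGC-1 none was called in dbR vs. dbdb, and none in dbdb vs. control, where 3 of 16 alternatives called 1 or 2. Prkaa2, a catalytic subunit of AMPK, was lower in dbR vs. control (-0.22, adjusted p = 0.0269), a call lost in 9 of 16 alternatives (adjusted p up to 0.244).

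Of 33 genes known as PPAR targets 31 were tested, and in dbdb vs. control 13 were higher and 8 lower. Their median log2 change was 0.08, and of all genes 13.1% were called higher and 13.4% lower. Cyp4a14, a fatty acid ω-hydroxylase, was at 4.67, 6.27 and 5.70 FPKM in Control, 183, 151 and 134 in dbdb and 173, 179 and 215 in dbR (4.79 in dbdb vs. control, adjusted p = 1.33e-07). Cd36, a fatty acid transporter, moved the other way, from 211, 206 and 349 in Control to 33.2, 35.3 and 41.5 in dbdb and 36.7, 32.2 and 44.3 in dbR (-2.76, adjusted p = 1.84e-05). Lpl, lipoprotein lipase, was at 161, 130.0 and 180.1 in Control, 48.7, 40.5 and 45.1 in dbdb and 55.6, 63.7 and 62.9 in dbR (log2 change against control -1.80 for dbdb, adjusted p = 1.26e-05, and -1.36 for dbR, adjusted p = 6.13e-05). Cyp4a14 and Cd36 overlapped between dbR and dbdb, with log2 changes of 0.28 and 0.03, neither of them called.

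The target genes called in dbR vs. dbdb were Pdk4 and Fabp4, 2 of the 31, where 0.743% of all genes were called. Pdk4, which restrains pyruvate oxidation, was at 1.20, 1.50 and 1.30 FPKM in Control, 3.99, 3.64 and 5.21 in dbdb and 1.95, 2.18 and 2.14 in dbR, and fell by 0.98 on the log2 scale in dbR vs. dbdb (adjusted p = 0.0254). Fabp4, the fatty acid-binding protein of fat cells and endothelium, was at 30.6, 36.6 and 41.6 in Control, 32.9, 21.9 and 22.8 in dbdb and 45.8, 45.8 and 43.2 in dbR, and rose by 0.82 (adjusted p = 0.0450). Angptl4, an inhibitor of lipoprotein lipase, was at 4.82, 6.17 and 9.93 in Control, 21.2, 23.6 and 33.2 in dbdb and 9.37, 6.10 and 16.2 in dbR, with a log2 change of 1.92 in dbdb vs. control (adjusted p = 0.00326) and -1.38 for dbR against dbdb (adjusted p = 0.0880). Fabp4 moved beside the endothelial markers, of which 2 of 5 were higher in dbR vs. dbdb, and their part in its value was not tested. In dbR vs. control 8 of the 31 were higher and 9 lower, where 12.3% of all genes were called higher and 11.8% lower. The calls of Lpin1, Mef2c, Fabp4 and Pdk4 in dbR vs. dbdb were each lost in 7 or more of 16 alternatives, with adjusted p of up to 0.189.

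**Figure D5:**
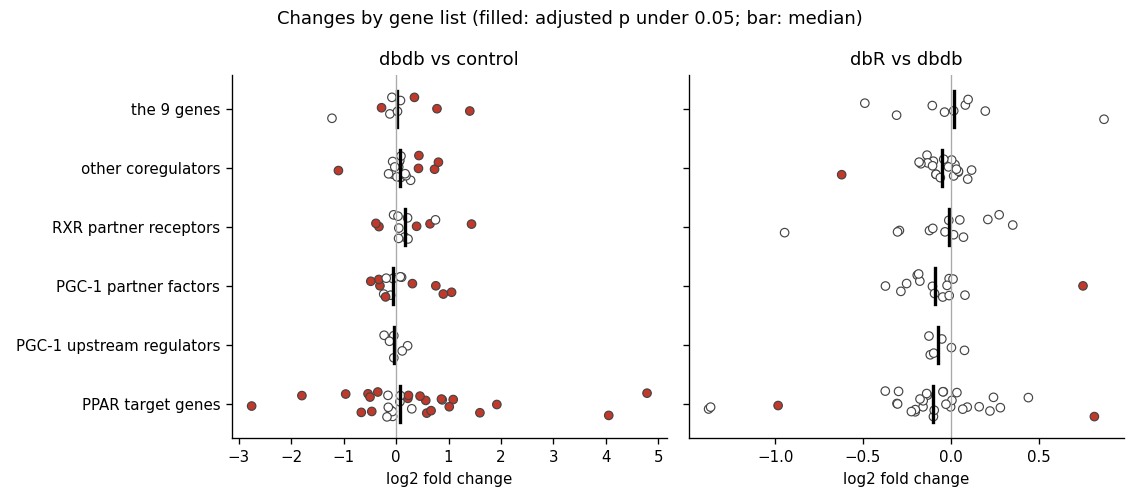
Log2 fold change (x axis) of each tested gene of the 9 genes and the 5 related lists, one point per gene, for dbdb vs. control (left) and for dbR vs. dbdb (right); bars are medians and filled points have an adjusted p under 0.05. The x axes differ between the panels; filled points lie on both sides of 0 in dbdb vs. control in 4 of the 5 lists and number 4 in all in dbR vs. dbdb.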

How the data were processed

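From rRNA-depleted, strand-specific libraries the authors aligned paired reads to GRCm38.p2 with TopHat2 (2.0.9) and deposited the FPKM of each transcript per library from Cufflinks (2.1.1), for mRNAs, annotated lncRNAs and lncRNAs they had assembled. Cufflinks divides reads between overlapping transcripts, so values of single transcripts carry that estimate. Groups and replicate numbers came from the sample titles. FPKM was summed per gene, and log2(FPKM + 0.1) of genes, or of mRNA and lncRNA transcripts, with a mean of at least 0.1 was fitted with limma 3.58.1 (R 4.3.3) in 1 model of the 3 groups with a variance trend. p-values are two-sided, adjusted by Benjamini-Hochberg over all features. The step was checked on simulated data. Transcript names, coordinates and coding lengths came from the GENCODE vM21 annotation (GRCm38), in which all 44 transcripts were found, and upstream sequences from RefSeq. The members and lists were chosen with earlier results of these data known. Named were the 9 genes, their main transcripts, up to 4 called genes per list and comparison with the largest change, and for the called member with the largest change the 3 genes nearest in profile. Tbl1x, Esrra, Gabpa, Tfb2m and the member transcripts with a mean FPKM under 0.1 were named beyond this rule after their values were seen. Results of some genes that fall under the rule are not reported here. Alternatives were other pseudocounts, filters, scalings, 6-library fits, no trend, a replicate block and leaving out each library; for the counts of transcripts and lists some were added after seeing the data. Python 3.11.15 with pandas 2.3.3 was used otherwise.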

Additional observations from a re-analysis of the deposited data

How the results depend on the processing

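The calls of Ppara, Rxra and Rxrg in dbdb vs. control and of Ppara in dbR vs. control held in every alternative that tested them. Rxrg was not tested at a mean FPKM of at least 1, since its mean is below that. Its call in dbR vs. control was lost with its main transcript alone (adjusted p = 0.110). The Ncor1 call was also lost with its main transcript alone, and Ncor1 was called in dbR vs. control without Control replicate 3 (-0.23, adjusted p = 0.0396). Rxra in dbR vs. control had an adjusted p of 0.0571 without a filter, 0.0823 without the trend, 0.0674 in the 6 libraries alone and 0.0688 with the replicate block.

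Small changes turned their sign. In dbdb vs. control, Ppard was 0.074 with mitochondrial transcripts left out and 0.054 with its main transcript, Rxrb was 0.038 with mitochondrial transcripts left out, and Ppargc1b was -0.032 with quantile normalization. In dbR vs. dbdb, Ppard was -0.034 and Ppargc1a -0.068 with their main transcripts, and Ppargc1b was -0.046 with mitochondrial transcripts left out. In dbR vs. control, Ppargc1b was -0.0058 with quantile normalization. When each library was left out in turn, Ppargc1a ran from -0.029 to 0.16 and Ppargc1b from -0.023 to 0.12 in dbdb vs. control, Ppargc1b from -0.079 to 0.070 in dbR vs. dbdb, and Pparg from -0.74 to 0.18 in dbR vs. control, the last value without Control replicate 2.

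The 108 genes called in dbR vs. dbdb became 166 at a mean FPKM of at least 1, 31 without a filter, 18 without the trend, 36 in the 6 libraries alone, 234 with quantile normalization, 203 with scaling to the 75th percentile, and 2 to 141 when each library was left out, with 2 without dbR replicate 2, 10 without dbR replicate 3, 31 without dbdb replicate 2 and 36 without dbdb replicate 1. The 4 transcripts called there became 2 with mitochondrial transcripts left out, 24 without a filter, 11 without the trend, 8 in the 6 libraries, 13 with quantile normalization and 0 to 14 when a library was left out. The members called there, 0, became 1 (Ppara) with mitochondrial transcripts left out, and 0 to 1 when a library was left out. Transcripts called were 1725 to 2113 against 2940 in dbdb vs. control and 1495 to 1903 against 2644 in dbR vs. control when a library was left out. Of the genes called in dbR vs. control 51.1% were higher, and 62.3% with scaling to the 75th percentile. The cause was not tested.

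Libraries with the same replicate number did not deviate together from their group means (Pearson r over genes from -0.17 to 0.06). No pairing by number was thus seen, but a weak one could go undetected with 3 libraries per group. With the replicate number as a block, 23 genes and 0 transcripts were called in dbR vs. dbdb, and of the members' calls only that of Rxra in dbR vs. control was lost. Calls of the transcripts Rxra-201 (dbdb vs. control) and Ppara-201 (dbR vs. control) and of Rarb (dbdb vs. control), Lpin1, Pdk4 and Fabp4 (dbR vs. dbdb), and Perm1 and Rarg (dbR vs. control) were lost with it too.

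FPKM holds no fragment counts, so the counting error of Pparg and Rxrg, which averaged under 1 FPKM, is unknown.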
